A study of Mus musculus with 31 samples.

Results

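The 41 lysosome and autophagy genes described here were read by symbol from a table of RNA-seq counts of cultured mouse heart fibroblasts. The table holds 24421 genes, and all 41 symbols were found in it. Their products fall into 8 classes: 10 proteases, 9 glycosidases, 6 lipid handling proteins, 2 precursors of enzyme cofactors, 5 lysosomal membrane proteins, 3 parts of the proton pump, 2 transcription factors and 4 autophagy proteins. All 41 passed the filter on low counts, which 14036 genes passed in all, so no member was lost.

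Fibroblasts were isolated from hearts of C57Bl/6 mice aged 8 to 12 weeks and cultured without a drug or a genetic change that the labels name. The 10 groups were 2D, 3D, cells moved from 3D to 2D (3D-2D), cells moved on from there to 3D again (3D-2D-3D) or to 2D again (3D-2D-2D), 2D and 3D kept for 5 days (2D-5days and 3D-5days), and 2D on substrates of 0.5, 8 and 64 kPa. Each group had 3 libraries except 3D-2D, which had 2. The labels give no time for the groups without one and no material for the substrates. They do not say how many mice a library pools, nor if the replicates are independent cultures. The p-values therefore reflect only the scatter among the sequenced libraries, and that scatter may be technical. The 2 ATAC-seq libraries of the series were not analysed here.

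Lysosomes are acidic compartments in which proteins, glycans and lipids are broken down. A proton pump in their membrane acidifies them, acid hydrolases digest what arrives, and autophagy delivers the cell's own cytoplasm and organelles. The transcription factors TFEB and TFE3 bind a motif with the core CACGTG before many lysosomal genes, and phosphorylation and movement into the nucleus set much of their activity, neither of which RNA counts measure. In fibroblasts, lysosomal proteases and glycosidases also take part in the turnover of internalised collagen and proteoglycans. Macrophages, which heart isolates can contain, carry very large amounts of the same enzymes.

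The members were first set beside that core motif, because their promoters are what they share on paper with the factors named above. RefSeq windows of 250 bases before to 50 bases after a transcript start (GRCm38.p6, the mm10 build) were found for 35 of the 41 genes. CACGTG, which reads the same on both strands, was in at least 1 window of 11 of these 35 genes (31.4%), against 2187 of 27025 genes with a window (8.09%). The longer TCACGTGA, which contains CACGTG, was found for 5 of 35 (14.3%) against 304 of 27025 (1.12%). These 27025 genes were not limited to genes that passed the filter on low counts, as all members did. Over 111 further genes of lysosomal and autophagy lists the shares were 22.5% and 9.01%. Stretches of 5 members whose RNA is described below are printed 5′ to 3′ on the gene's strand, with CACGTG in capitals, to show how the motif is placed. The Lamp1 stretch is chr8:13159090-13159160 (plus strand), Mcoln1 chr8:3500438-3500489 (plus), Gla chrX:134601184-134601242 (minus), Naglu chr11:101070011-101070036 (plus) and Ctsd chr7:142387910-142387935 (minus).
Lamp1: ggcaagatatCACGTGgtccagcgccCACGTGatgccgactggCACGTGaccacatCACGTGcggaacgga
Mcoln1: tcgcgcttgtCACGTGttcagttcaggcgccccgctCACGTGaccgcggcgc
Gla: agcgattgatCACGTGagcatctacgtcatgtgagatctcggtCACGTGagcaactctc
Naglu: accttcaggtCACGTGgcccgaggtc
Ctsd: gcccgcgtctCACGTGacccgttgag

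Counting the base before the start as -1, the motifs of Lamp1 begin at -61, -45, -28 and -15, those of Mcoln1 at -71 and -45, those of Gla at -227 and -194, and that of Naglu at -73. The printed Ctsd motif begins at -98, and another one begins at -245. Lamp1 held more of these motifs in its window than any other member with one. A match is a description of the letters, not evidence of binding.

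Library totals ran from 8509987 to 29909400 counts assigned to genes. Fibroblast markers summed to between 17524 and 75849 CPM (counts per gene scaled to a common library size) in every library, and the lymphocyte markers to below 1 CPM. A list of 24 macrophage markers gave signal in every library and varied within groups, with Ccr2 the 1 marker at 0 in some libraries. Lyz2, a lysozyme gene of macrophages, was at 474, 499 and 808 CPM in 2D and at 4522, 3192 and 105 CPM in 3D, so the third 3D library stood apart from the others. It was at 416 and 319 CPM in 3D-2D, at 104 to 113 CPM in 3D-2D-3D and at 249 to 253 CPM in 3D-2D-2D. At 5 days it was at 1440, 408 and 407 CPM in 2D and at 7633, 2151 and 2582 CPM in 3D. Several members are macrophage-rich, so the results below are given also for libraries with low Lyz2 where the groups allowed it. In these bulk cultures, a changed share of a cell type and a changed amount of RNA per cell cannot be told apart. No pair of libraries agreed within sampling noise, but some pairs were much more alike than others, and each count was repeated with the most alike libraries summed into 1.

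**Figure D1:**
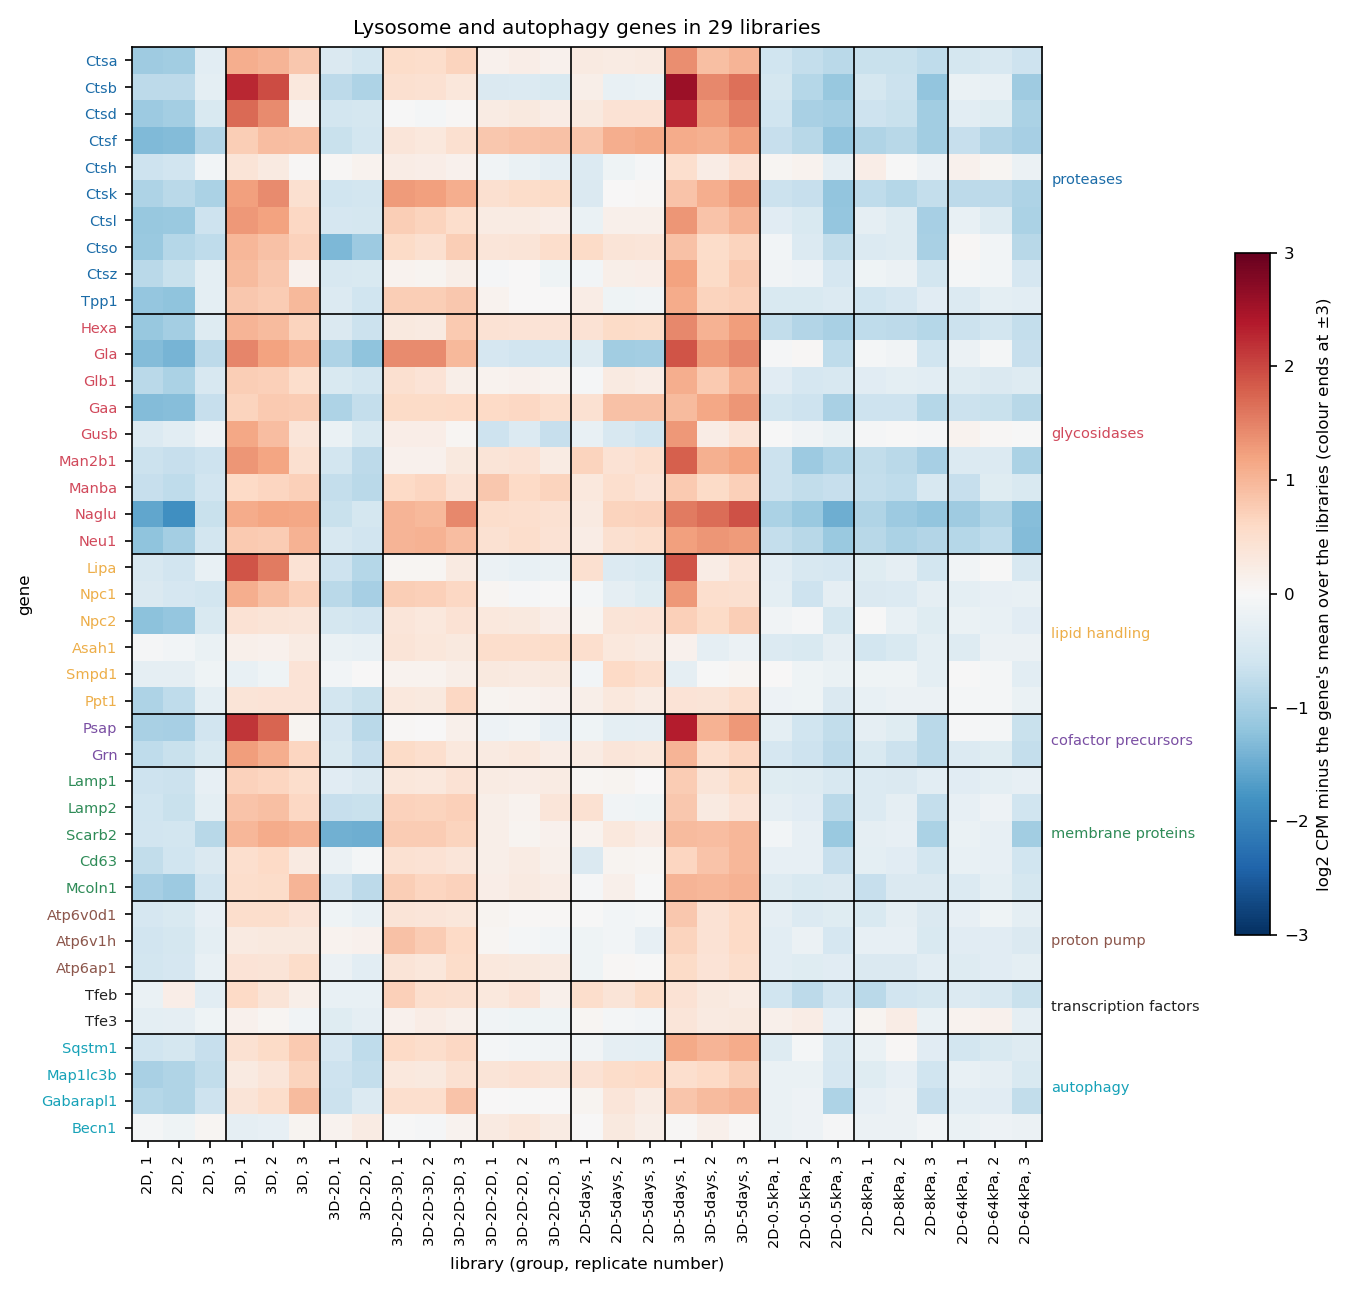
Level of the 41 genes in the 29 libraries, as log2 CPM minus each gene's mean over all libraries, with genes in rows by class and libraries in columns by group. Most rows are above their mean in 3D, 3D-2D-3D and 3D-5days and below it in 2D, 3D-2D and the 3 substrate groups.

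Over the 41 genes, the median of log2 CPM minus each gene's mean was -0.78, -0.75 and -0.46 in the 2D libraries and 0.74, 0.76 and 0.53 in the 3D libraries. It was -0.51 and -0.55 in 3D-2D, 0.42 to 0.47 in 3D-2D-3D and 0.19 to 0.25 in 3D-2D-2D. At 5 days it was 0.07, 0.25 and 0.19 in 2D and 0.95, 0.59 and 0.74 in 3D, and on the substrates it was between -0.57 and -0.29. The 3 groups that ended in 3D thus had the highest medians, 2D-5days and 3D-2D-2D lay between, and 2D, 3D-2D and the substrates were lowest.

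**Figure D2:**
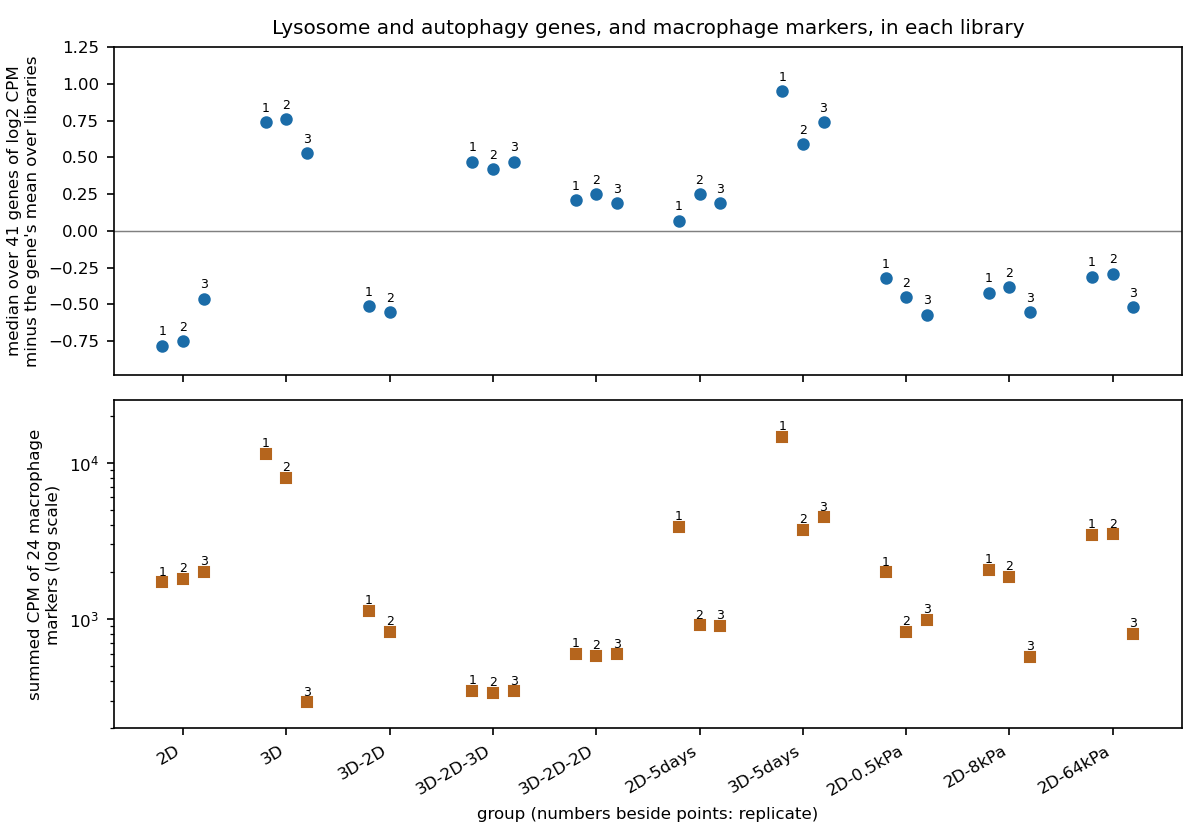
For each library, the top panel shows the median over the 41 genes of log2 CPM minus the gene's mean, and the bottom panel the summed CPM of 24 macrophage markers on a log axis. The third 3D library has a median of 0.53 with markers summing to 294 CPM, and the 3D-2D-3D libraries have medians of 0.42 to 0.47 with 337 to 348 CPM.

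The comparison of 3D with 2D asked how these genes differ between the arrangements in which the cells grew. Of the 41 genes, 38 rose in 3D and 0 fell, against 26.7% of all genes tested called higher and 27.3% called lower. The median log2 change was 1.40 over the members and 0.03 over all genes. All proteases, glycosidases, membrane proteins, pump parts and cofactor precursors rose, as did 5 of 6 lipid handling genes, 3 of 4 autophagy genes and 1 of 2 transcription factors. The median change was 2.02 for the cofactor precursors, 1.88 for the proteases, 1.70 for the glycosidases, 1.31 for the membrane proteins, 1.27 for the autophagy genes, 1.16 for lipid handling, 0.87 for the pump and 0.38 for the transcription factors. Values are log2 fold changes ± standard error with Benjamini-Hochberg adjusted p from edgeR's quasi-likelihood test, with 3 libraries in each of the 2 groups.

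Macrophage markers moved with this comparison: their sum was 1726 to 2003 CPM in 2D and 294 to 11375 CPM in 3D, and 8 of 23 tested rose while 1 fell. Cardiomyocyte markers were low in both groups but did not overlap, with sums of 10.6, 11.6 and 25.7 CPM in 2D and 66.9, 72.1 and 207.5 CPM in 3D, and 1 of 6 tested rose. Their highest sum was in the third 3D library, the one with low Lyz2, and their part in the results was not tested. With the single 3D library whose Lyz2 did not exceed the 2D libraries (replicate 3), 36 members were higher and 0 lower, with a median of 1.21, against 22.2% and 22.9% of all genes. That lone library is assumed to vary like the other groups. In replicates 1 and 2 alone 38 members were higher, with a median of 1.58, against 23.9% of all genes, and in replicate 3 alone 31 were, with a median of 1.03, against 17.2%. With replicate 3 alone, 1 library per group, the change was 0.68 for Psap, 0.66 for Lipa, 0.63 for Ctsb and 0.59 for Ctsd. It was 0.53 for Gusb, 0.43 for Ctsz and 0.15 for Ctsh. With the replicate number as a block, 32 members were called higher, against 18.9% of all genes in that fit. Asah1, Ctsb, Ctsd, Ctsh, Psap and Tfeb were not called there.

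Among the proteases, Ctsb, a cysteine protease, had the largest change. It was at 1027, 1028 and 1447 CPM in 2D and at 8533, 6853 and 2214 CPM in 3D, a log2 change of 2.33 ± 0.36 (adjusted p = 1.34e-05). The groups did not overlap, but the third 3D library lay much nearer to 2D than the others. Against that library alone the change was 0.92 ± 0.34, and with replicate 3 alone in both groups it was 0.63. With the block it was 2.18 ± 0.63 (adjusted p = 0.0629). Ctsd, the main aspartic protease of lysosomes, followed the same order, at 1498, 1574 and 2341 CPM in 2D and 10466, 8625 and 3479 CPM in 3D. Its change was 2.06 ± 0.30, was 0.95 ± 0.28 in the low-Lyz2 library, and reached an adjusted p of 0.0602 with the block. Ctsf, another cysteine protease, behaved otherwise: 14.6, 14.8 and 19.8 CPM in 2D against 61.3, 69.7 and 68.7 CPM in 3D, with all 3 of the 3D libraries close together (2.01 ± 0.13, adjusted p = 3.66e-11). Ctsl rose by 2.01 ± 0.23, Ctsk, known for cutting collagen, by 1.99 ± 0.18, and Ctso by 1.77 ± 0.19. The carboxypeptidase Ctsa and the peptidase Tpp1 rose by 1.74 ± 0.15 and 1.67 ± 0.17. Ctsz (1.24 ± 0.19) and Ctsh (0.64 ± 0.14), both exopeptidases, had the smallest rises in the class, and Ctsh was not called in the low-Lyz2 library (0.45 ± 0.18, adjusted p = 0.0506).

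Among the glycosidases, Naglu, which trims heparan sulfate, led. It was at 35.9, 29.4 and 65.9 CPM in 2D and 229, 241 and 237 CPM in 3D, a log2 change of 2.42 ± 0.22 (adjusted p = 6.63e-09). The 3D libraries were level with each other. With the low-Lyz2 library against all 2D libraries the change was 2.43 ± 0.27, and with replicate 3 alone in both groups it was 1.86. Gla, which removes galactose from glycolipids, was at 22.8, 21.3 and 32.6 CPM in 2D and 156, 129 and 116 CPM in 3D, a change of 2.38 ± 0.24. It was 2.18 ± 0.30 with the low-Lyz2 library and 1.85 with replicate 3 alone. Gaa, which digests glycogen, rose by 1.79 ± 0.15, the sialidase Neu1 by 1.76 ± 0.15, the hexosaminidase subunit Hexa by 1.70 ± 0.16 and the mannosidase Man2b1 by 1.69 ± 0.19. The galactosidase Glb1 (1.40 ± 0.11), the mannosidase Manba (1.33 ± 0.10) and the glucuronidase Gusb (1.15 ± 0.20) made up the lower end of the class. In the low-Lyz2 library Gusb was at 0.66 ± 0.24 and Man2b1, the next lowest of the class there, at 1.13 ± 0.21.

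Of the genes for lipid handling, Lipa, the acid lipase that frees cholesterol and fatty acids, had the largest change. Its CPM were 178, 168 and 215 in 2D and 928, 736 and 336 in 3D (1.83 ± 0.35, adjusted p = 0.000181). The third 3D library was again the lowest of its group, and against it Lipa was not called (0.85 ± 0.41, adjusted p = 0.0978). The cholesterol transporters Npc1 and Npc2 rose by 1.40 ± 0.16 and 1.30 ± 0.16, and the thioesterase Ppt1 by 1.03 ± 0.12. The sphingolipid enzymes moved least: the acid ceramidase Asah1 rose by 0.28 ± 0.10 (adjusted p = 0.0177) and the acid sphingomyelinase Smpd1 was 0.28 ± 0.15 (adjusted p = 0.121). Smpd1 went against Lyz2, at 69.1 and 74.7 CPM in the first 3D libraries and 108.8 CPM in the third, and it was called higher against that library alone (0.65 ± 0.17, adjusted p = 0.00458).

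Both cofactor precursors rose. Psap, the precursor of the saposins that sphingolipid enzymes need, was at 1029, 1022 and 1356 CPM in 2D and at 8899, 6840 and 2149 CPM in 3D (2.39 ± 0.36, adjusted p = 9.62e-06). It repeated the pattern of Ctsb, falling in size to 0.92 ± 0.33 (adjusted p = 0.0264) in the low-Lyz2 library and to an adjusted p of 0.0602 with the block. Grn, the progranulin gene, rose by 1.65 ± 0.15 and was at 345, 364 and 420 CPM in 2D and 1394, 1242 and 903 CPM in 3D.

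The 5 genes for membrane proteins all rose, led by Scarb2, which carries the enzyme glucocerebrosidase to lysosomes. Scarb2 was at 268, 270.1 and 223 CPM in 2D and 790.4, 857 and 823 CPM in 3D, a log2 change of 1.70 ± 0.21 (adjusted p = 9.22e-07). Its change was 1.70 in the low-Lyz2 library as well and 1.90 with replicate 3 alone. The cation channel Mcoln1 rose by 1.59 ± 0.13, the major membrane glycoproteins Lamp2 and Lamp1 by 1.31 ± 0.18 and 1.12 ± 0.10, and the tetraspanin Cd63 by 1.04 ± 0.14. Mcoln1 was highest in the third 3D library (74.4, 75.9 and 104.2 CPM). The 3 pump genes rose less: Atp6v0d1 was at 88.4, 91.6 and 105.5 CPM in 2D and 179.6, 181.5 and 166.7 CPM in 3D (0.88 ± 0.09, adjusted p = 2.36e-08). The accessory subunit Atp6ap1 rose by 0.87 ± 0.09 and Atp6v1h by 0.75 ± 0.10.

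The 2 transcription factors moved little. Tfeb was at 14.9, 19.9 and 13.7 CPM in 2D and 26.2, 22.6 and 19.4 CPM in 3D (0.49 ± 0.13, adjusted p = 0.00339). These groups overlapped, because the third 3D library was below the second 2D library, and Tfeb was not called with the low-Lyz2 library (0.26 ± 0.18, adjusted p = 0.237) or with the block (adjusted p = 0.0733). Tfe3 was at 74.9, 76.9 and 84.1 CPM in 2D and 100.3, 96.8 and 85.6 CPM in 3D (0.26 ± 0.12, adjusted p = 0.0629). Tfe3 did not pass the threshold, although its highest 2D library lay just below its lowest 3D library.

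Of the autophagy genes, 3 rose and 1 did not. Sqstm1, a receptor that links ubiquitin-tagged cargo to the autophagosome, was at 563, 589 and 528 CPM in 2D and 1165, 1272 and 1473 CPM in 3D (1.22 ± 0.11, adjusted p = 1.26e-08). Map1lc3b, whose product coats autophagosome membranes, was at 118, 125 and 139 CPM against 279, 301 and 371 CPM (1.31 ± 0.11, adjusted p = 4.76e-09). Gabarapl1, of the same ubiquitin-like family, was at 86.2, 84.4 and 101 CPM against 204, 225 and 301 CPM (1.42 ± 0.18, adjusted p = 1.09e-06). For all 3 the highest library was the third 3D library, the one with the least Lyz2. Becn1, part of the lipid kinase complex that starts autophagosome formation, was at 65.3, 62.3 and 71.7 CPM in 2D and 56.5, 57.9 and 72.3 CPM in 3D, and was not called (-0.09 ± 0.09, adjusted p = 0.385). Without the third 3D library it was called lower (-0.23, adjusted p = 0.0253) and Tfe3 higher (0.31, adjusted p = 0.0399).

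**Figure D3:**
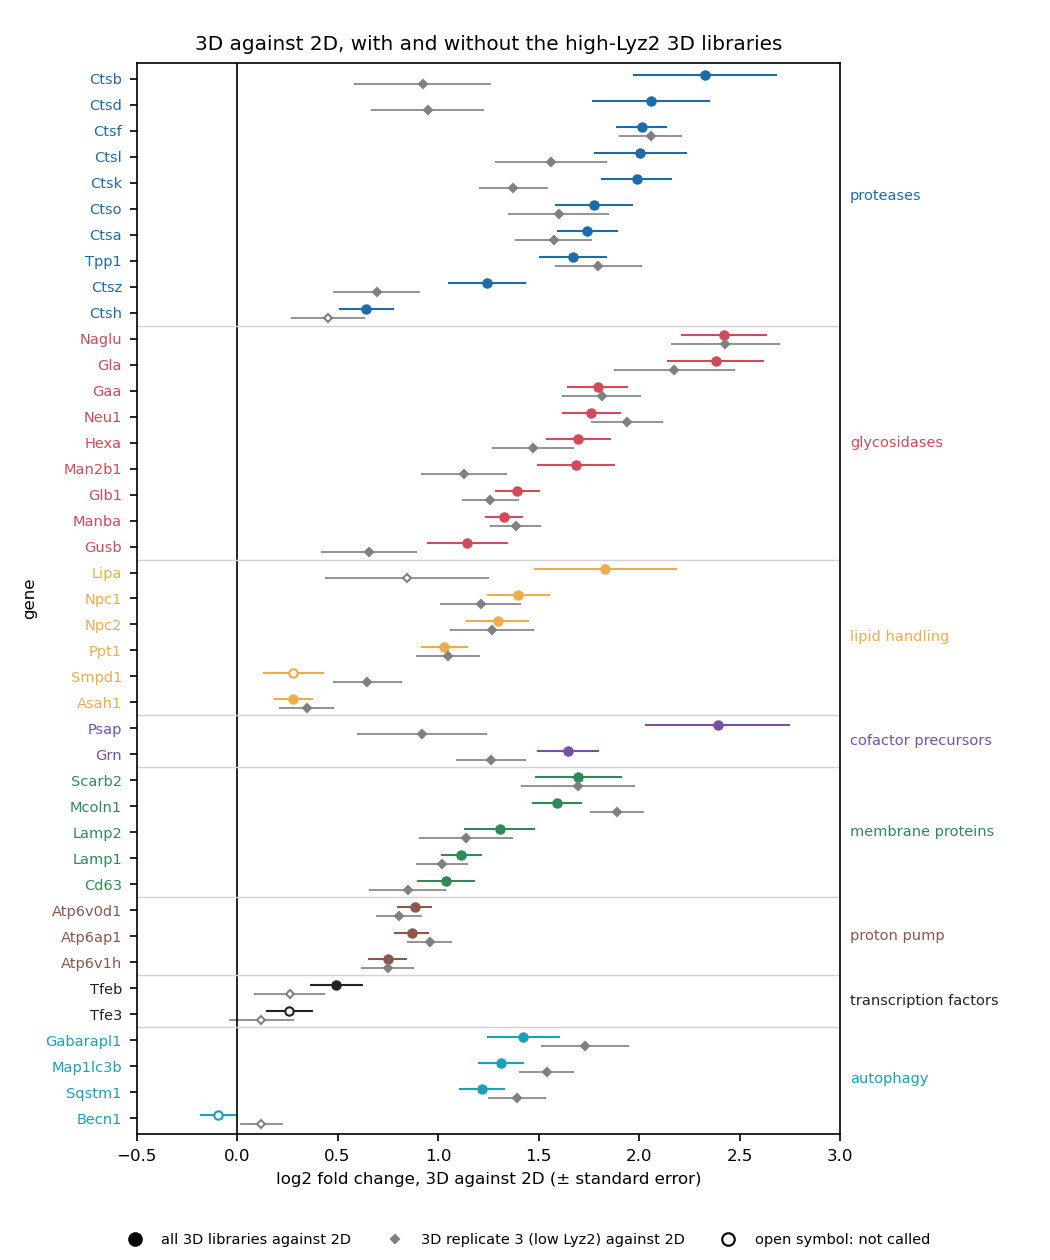
Log2 fold change of 3D against 2D for each of the 41 genes by class, with standard errors. Coloured points use all libraries, grey diamonds use the 1 3D library with low Lyz2, and open symbols were not called. Psap, Ctsb, Ctsd and Lipa lie far to the right of their grey diamonds, and Naglu, Scarb2 and the autophagy genes lie close to or to the left of theirs.

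Of the members with a promoter window, the 11 with CACGTG had a median log2 change of 1.79 in 3D against 2D (0.88 or more in each) and the 24 without had 1.32 (range 0.26 to 2.39). This is given as a description only, since genes of 1 class share both features.

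Libraries of 1 group that differed in Lyz2 also differed in some members. In 3D, the mean of the first 2 libraries minus the third was 5.17 for Lyz2 on the log2 CPM scale and had a median of 0.20 over the members. It was above 1 for Psap (1.86), Ctsb (1.79), Ctsd (1.45) and Lipa (1.30), and lowest for Smpd1 (-0.60). In 3D-5days, replicate 1 minus the mean of the others was 1.70 for Lyz2, and again above 1 for Lipa (1.57), Psap (1.17) and Ctsb (1.01), with a median of 0.17. The other 37 differed by 1 or less in both. At 64 kPa, the first 2 libraries minus the third gave 2.32 for Lyz2 on the same log2 scale. Ctsb differed there by 0.85, Psap by 0.63, Ctsd by 0.60 and Lipa by 0.42. These were not the only large differences at 64 kPa. Scarb2 differed by 0.82, Ctso by 0.80 and Ctsl by 0.64, each more than Psap, Ctsd and Lipa. The median over the members was 0.22 (range -0.12 to 0.85). In 2D-5days, replicate 1 minus the others gave 1.82 for Lyz2. Lipa differed there by 0.93, Ctsb by 0.38, Psap by 0.17 and Ctsd by -0.14. Gla (0.64) and Lamp2 (0.56) differed more in 2D-5days than Ctsb, Psap and Ctsd. The median over the members was -0.11 (range -0.64 to 0.93). Differences in CPM can rank otherwise than these log2 values. Lyz2 was at 1650, 1608 and 326 CPM at 64 kPa and at 4522, 3192 and 105 CPM in 3D. Ctsb was at 1546, 1504 and 845 CPM at 64 kPa and at 8533, 6853 and 2214 CPM in 3D. The part of a macrophage share in these differences was not tested.

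The transfer from 3D to 2D asked whether levels seen in 3D persist. Of the 41 genes, 37 fell in 3D-2D against 3D and 1 rose, with a median of -1.40, against 27.7% of all genes called lower and 28.8% called higher. The comparison uses the same 3D libraries as the one above, so the values are not independent of it. Ctsb fell to 1022 and 935 CPM (-2.58 ± 0.43, adjusted p = 2.78e-05) and Scarb2 to 147 and 145 CPM (-2.50 ± 0.26, adjusted p = 5.77e-08). Scarb2 was thus below all 3 of the 3D libraries and also below all 3 of the 2D libraries. Gla fell by 2.31 on the log2 scale, Psap by 2.21, Lipa by 2.15 and Ctso by 2.09. Sqstm1 fell by 1.24, Gabarapl1 by 1.15 and Map1lc3b by 1.11. Becn1 was the 1 member that rose (0.32 ± 0.10, adjusted p = 0.00853), and Atp6v1h (-0.17 ± 0.11), Ctsh (-0.17 ± 0.15) and Smpd1 (-0.09 ± 0.17) were not called.

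Macrophage markers summed to 828 and 1132 CPM in 3D-2D, and 16 of 23 fell against 3D while 1 rose. Sums of endothelial (9.73 and 13.1 CPM), mural cell (250 and 270 CPM) and cardiomyocyte markers (19.3 and 20.2 CPM) were also below those of all 3D libraries, and their part in the results was not tested. Against the low-Lyz2 3D library alone, 33 members were lower and 0 higher, with a median of -1.16, against 22% and 22.7% of all genes. Scarb2 (-2.50) and Gla (-2.11) kept their size there, whereas Psap (-0.75, adjusted p = 0.0925) and Ctsd (-0.66, adjusted p = 0.0878) were not called. The rise of Becn1 was also lost there (0.10), with library totals as the scaling, and without 3D-2D replicate 2 (0.25). It was lost too with only the groups compared and with the most alike libraries summed.

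Set against cells kept in 2D, the 3D-2D cells differed in few members. Of the 41, 4 were higher and 1 lower, with a median of 0.19, against 6.85% and 7.54% of all genes, so that 4 of 41 is close to the background. Naglu was at 66.8 and 73.7 CPM (0.67 ± 0.23, adjusted p = 0.0494) and the pump subunit Atp6v1h at 126 and 128 CPM against 78.7, 81.3 and 95.4 CPM in 2D (0.58 ± 0.10, adjusted p = 0.00131). Ctsf (0.54 ± 0.14) and Ctsh (0.47 ± 0.15) were the other members called higher, and Scarb2 was called lower (-0.80 ± 0.24, adjusted p = 0.029). The third 2D library, which had the highest Lyz2 of its group, bore on this count: without it 15 members were higher and 1 lower, against 10.9% and 10.1% of all genes in that fit. Atp6v1h was the 1 gene called in each of these fits with a library left out, and Naglu, Ctsh and Scarb2 were not called without any 1 of the other 4 libraries. The call of Atp6v1h was lost with only the groups compared and with the most alike libraries summed. Endothelial (9.73 and 13.1 CPM) and mural cell marker sums (250 and 270 CPM) were below those of all 2D libraries, and their part was not tested. Over all settings tried the number of members called ran from 0 to 27.

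Cells returned to 3D were compared with the 3D-2D cells they came from and with cells passed to 2D instead. Both comparisons use the same 3D-2D-3D libraries. Against 3D-2D, 34 of 41 members rose and 0 fell, with a median of 1, against 24.2% of all genes called higher and 25% called lower. Gla went from 29.4 and 24.4 CPM to 149.6, 151 and 111 CPM (2.35 ± 0.28, adjusted p = 6.2e-07). Scarb2 went from 147 and 145 CPM to 677, 681 and 631 CPM (2.18 ± 0.25, adjusted p = 3.91e-07). Ctso (1.83 ± 0.22), Ctsk (1.77 ± 0.20), Naglu (1.75 ± 0.24) and Npc1 (1.60 ± 0.18) also rose, as did Sqstm1 (1.20 ± 0.13), Gabarapl1 (1.15 ± 0.21), Map1lc3b (1.02 ± 0.13) and Tfeb (0.80 ± 0.15). Psap (0.73 ± 0.39, adjusted p = 0.13), Lipa (0.86 ± 0.39), Ctsd (0.53 ± 0.32), Gusb (0.49 ± 0.22), Smpd1 (0.16 ± 0.17), Ctsh (0.13 ± 0.15) and Becn1 (-0.17 ± 0.10) were not called. Of these, Psap, Lipa, Ctsd and Gusb were called with Lyz2 as a covariate, with only the groups compared and with the replicate block. Becn1 was called with the covariate and with the block. Here macrophage markers went the other way from most members: they summed to 828 and 1132 CPM in 3D-2D and to 337 to 348 CPM in 3D-2D-3D, with a median log2 difference of -1.50 and 0 of 23 called. Sums of mural cell (470 to 548 CPM), endothelial (23.9 to 34.6 CPM) and cardiomyocyte markers (33.5 to 166 CPM) were above those of both 3D-2D libraries, and their part was not tested. Ctsb (1.27 ± 0.40) was called too, but not without either of the 3D-2D libraries (adjusted p = 0.0569 and 0.0859).

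Against 3D-2D-2D, 17 members were higher and 2 lower, with a median of 0.29, against 19.8% and 20.6% of all genes. With library totals as the scaling, 26 members were higher and 0 lower, where the median of all genes moved to 0.22 and 33.8% of them were called higher. Gla was at 39.8, 37.5 and 37.3 CPM in 3D-2D-2D and rose by 1.85 ± 0.24 (adjusted p = 2.35e-06), by far the largest difference among the members. Atp6v1h was at 122.9, 113.2 and 110.8 CPM against 215.3, 201.3 and 178.1 CPM in 3D-2D-3D (0.78 ± 0.10, adjusted p = 1.1e-06). Gusb (0.73 ± 0.20), Tpp1 (0.72 ± 0.17), Npc1 (0.69 ± 0.15), Sqstm1 (0.66 ± 0.11), Ctsk (0.66 ± 0.17), Naglu (0.66 ± 0.20), Gabarapl1 (0.63 ± 0.18) and Scarb2 (0.61 ± 0.21) were also higher. Ctsf went the other way, at 64.5, 66.1 and 67.0 CPM in 3D-2D-2D and 46.8, 45.8 and 50.9 CPM in 3D-2D-3D (-0.46 ± 0.12, adjusted p = 0.00379). Becn1 was lower too (-0.27 ± 0.09, adjusted p = 0.0201). Ctsb (0.86 ± 0.35, adjusted p = 0.0528), Ctsd (-0.26 ± 0.28) and Map1lc3b (-0.04 ± 0.11) were not called. Scarb2 was not called after leaving out any 1 of 5 of the 6 libraries (adjusted p = 0.0529 to 0.0795), nor Naglu without 3D-2D-3D replicate 3 (adjusted p = 0.0768), nor Becn1 without 3D-2D-2D replicate 2 or 3D-2D-3D replicates 1 or 2. Several marker sums moved with this comparison. Macrophage markers summed to 582 to 602 CPM in 3D-2D-2D and to 337 to 348 CPM in 3D-2D-3D, and mural cell markers to 1356 to 1417 CPM and 470 to 548 CPM. Fibroblast markers summed to 69711 to 75849 CPM in 3D-2D-2D and 18758 to 26016 CPM in 3D-2D-3D, with 5 of 10 lower, and endothelial markers to 73.1 to 77.7 CPM and 23.9 to 34.6 CPM. The part of these in the results was not tested. Fitted on these 2 groups alone, 27 members were higher and 5 lower, against 28.9% and 27.6% of all genes in that fit.

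**Figure D4:**
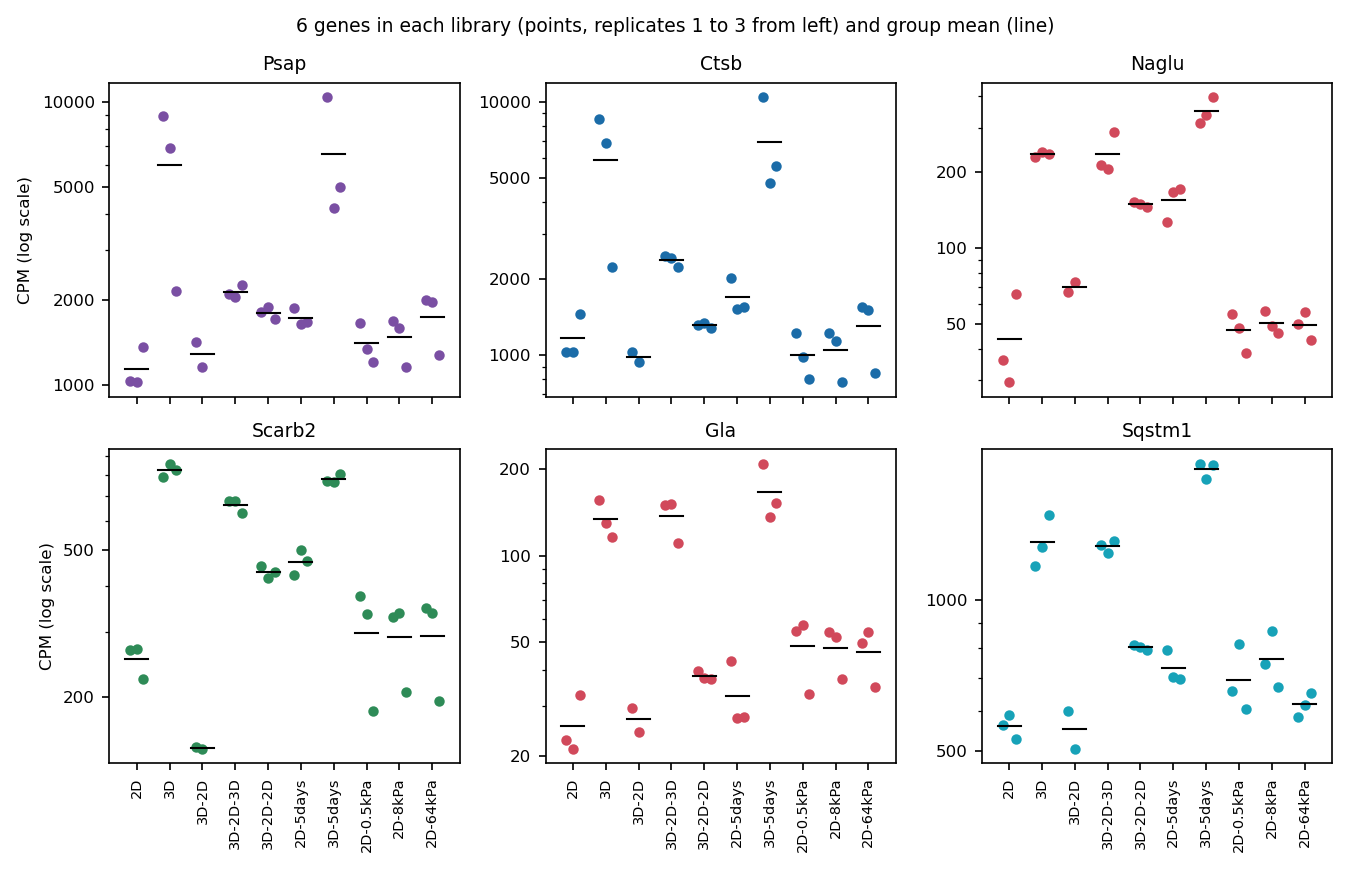
CPM on a log axis of Psap, Ctsb, Naglu, Scarb2, Gla and Sqstm1 in every library, with a line at each group's mean. Psap and Ctsb are spread widely within 3D, where Ctsb runs from 2214 to 8533 CPM, whereas the 3D libraries of Naglu, Scarb2 and Sqstm1 lie close together.

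At 5 days, 31 members were higher in 3D than in 2D and 2 were lower, with a median of 0.74, against 14.9% and 17.5% of all genes. Gla rose most, from 42.8, 27.2 and 27.5 CPM to 209, 136 and 152 CPM (2.35 ± 0.24, adjusted p = 1.46e-07). Ctsb went from 2007, 1524 and 1551 CPM to 10403, 4770 and 5558 CPM (2.03 ± 0.36, adjusted p = 0.000128). The first 3D-5days library, with the most Lyz2, was the highest for both. Psap rose by 1.92 ± 0.35, Ctsd by 1.37 ± 0.29 and Sqstm1 by 1.31 ± 0.11. The 2 members that fell are sphingolipid enzymes: Asah1, at 436, 380 and 368 CPM in 2D-5days and 336, 256 and 274 CPM in 3D-5days (-0.45 ± 0.10, adjusted p = 0.000903), and Smpd1, whose groups overlapped (-0.45 ± 0.15, adjusted p = 0.0267). Smpd1 was not called without 2D-5days replicates 2 or 3 or 3D-5days replicates 1 or 2. Becn1, Ctsf, Ctso, Lamp2, Map1lc3b, Npc2, Ppt1 and Tfeb were not called.

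The macrophage markers summed to 910 to 3895 CPM in 2D-5days and to 3733 to 14663 CPM in 3D-5days, and no 3D-5days library was low enough in Lyz2 to give a separate value. The sum of endothelial markers was higher in 3D-5days (39.6 to 104.8 CPM) than in 2D-5days (27.5 to 34.1 CPM) and the sum of mural cell markers lower (463 to 665 against 1088 to 1252 CPM), and their part was not tested. With Lyz2 as a covariate, 25 members were higher and 1 lower, against 13.5% and 16.6% of all genes in that fit, and Psap was at 0.96, Ctsb at 1.08 and Lipa at 0.31. Lipa also rested on the first 3D-5days library: without it the change was 0.38 (adjusted p = 0.356), and it was not called without 2D-5days replicates 2 (0.97) or 3 (0.95). With the replicate number as a block, Lamp2 (0.46, adjusted p = 0.00334) and Npc2 (0.42, adjusted p = 0.0101) were called higher as well.

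The log2 change of 3D against 2D was lower at 5 days than in the groups without a stated time for 26 of the 41 members, of which Asah1, Smpd1 and Tfeb were below 0 at 5 days, and higher for 0, by a test of the difference itself, against 13.2% and 12.3% of all genes. The median difference was -0.73. Ctsf stood first (-1.91, adjusted p = 3.26e-07): it was at 65.5, 78.8 and 81.4 CPM in 2D-5days and 79.9, 77.0 and 86.0 CPM in 3D-5days, so that the 2D-5days level overlapped that of both 3D groups. Ctso (-1.52), Gaa (-1.40) and Naglu (-1.25) came next among the enzymes. Map1lc3b (-1.23) was the first of the autophagy genes, at 315, 343 and 349 CPM in 2D-5days and 332, 351 and 387 CPM in 3D-5days. Gla (-0.03), Gusb (0.00) and Sqstm1 (0.10) differed by little, and neither they nor Ctsb (-0.30) and Psap (-0.47) were called. Fewer members were called in some other fits: 16 with the replicate block, against 9.23% of all genes called lower there, 16 with these 4 groups alone (8.12%) and 8 with the most alike libraries summed (4.52%). The 8 were Asah1, Ctsf, Ctso, Gaa, Grn, Manba, Map1lc3b and Ppt1. With Lyz2 as a covariate, Ctsb, Ctsd, Ctsz, Lipa and Psap were called as well, while Atp6ap1 and Gabarapl1 were not.

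**Figure D5:**
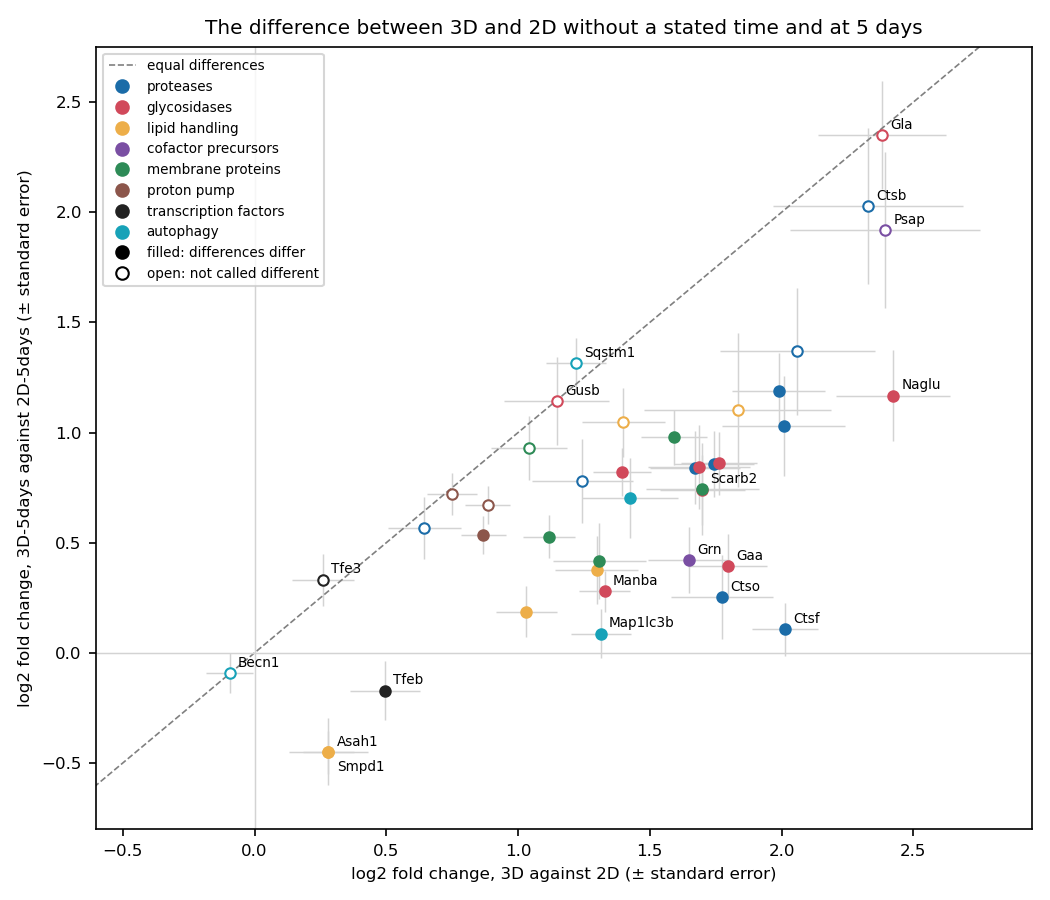
For each of the 41 genes, the log2 fold change of 3D against 2D without a stated time (horizontal) and at 5 days (vertical), with the line of equality. Filled points are the 26 genes whose 2 changes differed by the test of the difference, and all of these lie below the line, with Gla, Sqstm1 and Gusb on or near it.

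On 2D substrates of 0.5, 8 and 64 kPa, no member was called. The share of all genes called was 0% in both directions in each of the 3 comparisons by edgeR, and DESeq2 called 0 members. At an unadjusted p under 0.05, edgeR gave 0 members for 8 against 0.5 kPa, 1 for 64 against 8 kPa (Sqstm1, -0.30 ± 0.11) and 1 for 64 against 0.5 kPa (Manba, 0.21). Fold changes of the members ran from -0.30 to 0.37, the latter for Ctsb in 64 against 0.5 kPa (0.37 ± 0.34). The third library of each stiffness differed from the other 2 in Lyz2 at 8 kPa (949, 862 and 224 CPM) and 64 kPa (1650, 1608 and 326 CPM). Deviations of same-numbered libraries correlated by 0.191 to 0.753, those of the third ones most. Replicate 2 at 8 kPa correlated more with a 0.5 kPa library of another number (0.502 against 0.35). The same held for replicate 2 at 64 kPa against 0.5 kPa (0.53 against 0.191), so the numbers do not establish pairs. With the replicate number as a block, 8 members were higher at 64 than at 8 kPa, among them Psap (0.24, adjusted p = 0.00497), Ctsb (0.29) and Ctsd (0.25), against 3.12% of all genes called higher in that fit. Macrophage markers summed to 574 to 2070 CPM at 8 kPa and 807 to 3487 CPM at 64 kPa, and their part in this was not tested.

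The rest of the pathway was read from lists of further hydrolases, membrane proteins and transporters, pump subunits, sorting proteins, autophagy machinery and nutrient sensing at the lysosome, with 137 of 138 genes tested. In 3D against 2D, 97 of these (70.8%) rose and 7 (5.11%) fell, with a median of 0.74, beside 26.7% and 27.3% of all genes. By list, 26 of 28 hydrolases, 18 of 20 membrane proteins and transporters, 11 of 13 pump subunits, 9 of 14 sorting proteins, 17 of 38 autophagy genes and 16 of 24 nutrient sensing genes rose. The autophagy machinery had the smallest median (0.22), with 44.7% higher and 10.5% lower, and the hydrolases the largest (1.25). The largest rises were of Rragd, a small GTPase that helps to place mTORC1 at the lysosome, and Acp5, an acid phosphatase, and the largest falls of Ap1s1, an adaptor subunit of sorting vesicles (-0.85 ± 0.11), and Rheb, the GTPase that activates mTORC1 (-0.46 ± 0.09). Rragd was at 2.00, 1.66 and 14.9 CPM in 2D and 49.6, 56.2 and 83.7 CPM in 3D (3.26 ± 0.56), and within 3D it was highest in the library with the least Lyz2. Acp5 was at 2.50, 1.97 and 1.53 CPM in 2D and 26.1, 22.7 and 4.30 CPM in 3D (3.16 ± 0.61). Within 3D the third library, with the least Lyz2, was the lowest for Acp5. That library was above all 3 of the 2D libraries, which had more Lyz2. The part of a macrophage share in these values was not tested.

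The same lists in the other comparisons were counted in the same way. In 3D-2D against 3D, 95 fell and 5 rose (median -0.74), beside 27.7% and 28.8% of all genes, with Acp5 (-4.08 ± 0.76) and the protease Ctss (-3.54 ± 1.02) falling most and Ap1s1 (1.19 ± 0.12) and Rheb (0.88 ± 0.10) rising most. In 3D-2D against 2D, 12 (8.76%) were higher and 6 (4.38%) lower, near the 6.85% and 7.54% of all genes. In 3D-2D-3D, 85 rose and 3 fell against 3D-2D (median 0.66), beside 24.2% and 25% of all genes, with Rragd (2.74 ± 0.64) and the membrane protein Laptm4b (2.23 ± 0.17) first. Against 3D-2D-2D, 53 were higher and 14 lower, beside 19.8% and 20.6%, again with Rragd first (2.28 ± 0.55). At 5 days 57 were higher in 3D and 7 lower (median 0.32), beside 14.9% and 17.5%, led by Ctss (3.57 ± 0.86) and Rragd (2.85 ± 0.57), while Wipi1, which binds the forming autophagosome, fell by 0.98. Between the 2 time settings the log2 change was lower at 5 days for 48 of these genes and higher for 2, beside 13.2% and 12.3%. On the substrates 0 of the 137 were called in the 3 comparisons by edgeR.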

How the data were processed

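RNA-seq of 29 libraries in 10 groups was used. The deposited table holds counts of reads per gene; the submitters' processing notes name TopHat, Bowtie, HTSeq and the mm10 build, and do not name the strand setting or annotation, so overlapping and antisense genes cannot be separated. The 5 summary lines of the counter, 21.79 to 34.13% of counts, were left out. Genes were filtered with filterByExpr, scaled by TMM (factors 0.868 to 1.1) and fitted over all 29 libraries with edgeR 4.0.16 (robust quasi-likelihood, R 4.3.3, limma 3.58.1), with Benjamini-Hochberg adjustment over 14036 genes and a threshold of 0.05. All groups share 1 estimate of spread. CPM use effective library sizes, and log2 CPM a prior count of 2. Scripts were tested on simulated data. Alternatives included DESeq2 1.42.0, other scalings and filters, a replicate block, leaving out libraries, Lyz2 as a covariate and low-Lyz2 libraries (of the group with more Lyz2, those at or below the other group's highest). Deviations of same-numbered libraries correlated by 0.141, 0.23 and 0.232 in 3D and 2D. These correlations were 0.572, 0.288 and 0.337 at 5 days and 0.191 to 0.753 on the substrates. Some libraries with different numbers correlated more. In 3D against 2D this was 0.165 for 3D replicate 1, and in 64 against 0.5 kPa 0.53 for 64 kPa replicate 2. At 5 days it was 0.317 and 0.346 for 3D replicates 2 and 3. The numbers thus do not establish pairs. The reported tests used no pairing, and the block was an alternative only. Summing the most alike libraries was added after seeing the data. The members and lists were chosen with earlier results of these data known. Values per library are given for the member with the largest change in each of 6 classes, the transcription factors and autophagy genes in 3D against 2D, and elsewhere for the largest changes in each direction; other members and list genes named were chosen after their values were seen. Sequences are from RefSeq.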

Additional observations from a re-analysis of the deposited data

Results flagged for a closer look

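The difference between 3D and 2D was tested against itself in the 2 time settings, and 26 members changed differently, all with a lower value at 5 days (edgeR's quasi-likelihood test of the difference, Benjamini-Hochberg adjusted p under 0.05). On the log2 scale the change at 5 days minus the change without a stated time was -1.91 for Ctsf, -1.52 for Ctso, -0.98 for Ctsl, -0.89 for Ctsa, -0.83 for Tpp1 and -0.80 for Ctsk among the proteases. Among the glycosidases it was -1.40 for Gaa, -1.25 for Naglu, -1.05 for Manba, -0.96 for Hexa, -0.90 for Neu1, -0.84 for Man2b1 and -0.57 for Glb1. It was -0.92 for Npc2, -0.85 for Ppt1, -0.73 for Asah1 and -0.73 for Smpd1 in lipid handling, and -1.23 for Grn. Membrane and pump genes gave -0.95 for Scarb2, -0.89 for Lamp2, -0.62 for Mcoln1, -0.59 for Lamp1 and -0.33 for Atp6ap1. Tfeb gave -0.66, Map1lc3b -1.23 and Gabarapl1 -0.72. Asah1 was called higher in 3D without a stated time and lower at 5 days, while Smpd1 was not called in the first setting and was called lower in the second. The first of these calls of Asah1 (0.28) was lost with the replicate block (adjusted p = 0.0939), with only the groups compared (0.0596), with the most alike libraries summed (0.0708) and without 2D replicate 3 (0.0762) or 3D replicate 3 (0.078). The call of Asah1 at 5 days was also lost with only the groups compared. With the replicate block, the difference was not called for Atp6ap1, Ctsa, Ctsk, Ctsl, Glb1, Lamp1, Man2b1, Smpd1, Tfeb and Tpp1 (adjusted p = 0.0503 to 0.14). With the most alike libraries summed it was called for 8 members: Asah1, Ctsf, Ctso, Gaa, Grn, Manba, Map1lc3b and Ppt1. The labels do not give the time of the other 2D and 3D cultures, so which of them is older is not known. Groups of 3 or fewer libraries were not searched for single libraries far from the rest.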

How the results depend on the processing

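No member's difference reversed its direction among the called values in any alternative tried. The counts of members called in 3D against 2D, 3D-2D against 3D, 3D-2D-3D against 3D-2D and 3D-5days against 2D-5days stayed within 1.5 times of those reported in every alternative run. The 5 members called in 3D-2D against 2D became 3 with no filter on low counts, 8 with Lyz2 as a covariate, 1 with the fit on the groups compared alone, 27 with the replicate block, 0 with the most alike libraries summed and 1 to 16 when 1 library was left out. The 19 called in 3D-2D-3D against 3D-2D-2D became 32 with only the groups compared. The 26 members whose change differed between the time settings became 16 with only the groups compared, 16 with the replicate block and 8 with the most alike libraries summed. With Lyz2 as a covariate 5 members gained a call of this difference and 2 lost it. For 64 against 8 kPa the replicate block gave 8 in place of 0. The cause of these changes was not tested. In the transfers the shared replicate numbers do not pair libraries, and the block there (27 against 5, and 28 against 19) is not read as a change in effect. The low-Lyz2 rule gave no separate value for 3D-2D against 2D, for the 2 comparisons of 3D-2D-3D, at 5 days or for the difference between times. Scaling by totals shifted the all-gene median in 3D against 2D from 0.03 to 0.16. Leaving out 1 library cost at most 5 calls at 5 days and at most 4 in the difference between times, there most often Ctsl and Gabarapl1 (8 of 12 libraries each).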

Other observations

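Values of 2 relatives of Tfeb and Tfe3 and of genes around them were read after the lists had been counted. In 3D against 2D, Mitf differed by 1.85 ± 0.40 (adjusted p = 0.00055, edgeR's quasi-likelihood test) and Tfec by -0.08 ± 0.42, which was not called. Flcn, which acts with Rragd in nutrient sensing, differed by 1.78 ± 0.20, and its partner Fnip2 by 2.03 ± 0.46. In 3D-5days against 2D-5days the values were 1.08 ± 0.41 for Mitf, 0.26 ± 0.19 for Flcn and 1.84 ± 0.46 for Fnip2. Flcn was among the genes with a smaller difference at 5 days (-1.52 ± 0.28, adjusted p = 0.000406), and Rragd was not (-0.41 ± 0.76).

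Across the 41 members, the difference between libraries within 3D (the first 2 minus the third) and that within 3D-5days (the first minus the others) had a Pearson correlation of 0.76 and a Spearman correlation of 0.67. This is a description over genes, which are not independent replicates, and the libraries share the difference in Lyz2 given above. The same correlations with the difference within 64 kPa (the first 2 libraries minus the third) were 0.51 and 0.46 for 3D and 0.28 and 0.19 for 3D-5days. On the log2 CPM scale Lyz2 differed by 2.32 at 64 kPa and by 1.70 in 3D-5days. The part of a macrophage share in these correlations was not tested.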
